A study of Mus musculus with 12 samples.

Results

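The 37 genes described here mark endothelial cells, the cells that line blood vessels and the inside of the heart, and were measured among 19938 genes in mouse ventricles. They were listed by name from general knowledge of endothelial biology, with earlier results of these data known. Each was read from the Affymetrix probe set that the platform annotation assigns to that gene alone. All 37 had such a probe set, so every member was measured and no filter on low values was applied. They comprise 6 arterial genes (Sox17, Dll4, Efnb2, Hey1, Gja4 and Bmx), 3 capillary genes (Gpihbp1, Fabp4 and Emcn) and 28 genes of endothelium in general.

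The study placed surgical clips around the pulmonary artery or the aorta of male C57BL/6 mice and profiled the ventricle behind the clip. Pulmonary artery clipping (PAC) loads the right ventricle (RV), which was taken 1, 3 or 6 weeks after the operation from mice aged 13, 15 and 18 weeks. Transaortic constriction (TAC) loads the left ventricle (LV), which was taken 3 weeks after the operation at 15 weeks of age. Sham RV and sham LV were likewise taken at 3 weeks and 15 weeks of age, and each of the 6 groups had 2 arrays, 12 in all. Hearts were perfused with buffer before the ventricles and the septum were cut apart, so each array holds RNA of a whole ventricle piece. The labels do not say whether the 2 arrays of a group came from separate animals. A p-value here is set against the spread between the 2 arrays of a group, pooled over the 6 groups, which may be technical only. All 3 PAC groups were compared with the same 2 sham RV arrays, and the 1-week and 6-week groups differ from them in age and in time since the operation as well. Values are log2 expression after robust multi-array averaging (RMA), changes are differences of group means on that scale with their standard errors, and a gene passed where limma's p-value, adjusted over all 19938 genes by Benjamini-Hochberg, was under 0.05. With 2 arrays a group an exact permutation test could not go below p = 0.33.

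Endothelial cells hold together through junction proteins such as VE-cadherin, sense vessel growth factors through surface receptors, and keep their identity through ETS, SOX and GATA family transcription factors. Arteries, capillaries and veins carry different versions of this program: Notch signalling and SOX17 mark the arterial side, while capillaries of the heart are specialised for handing fatty acids to muscle. In whole ventricle, a lower or higher level of such a gene cannot tell fewer or more endothelial cells apart from less or more RNA per cell.

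The defining endothelial genes were well measured in these pieces. Group means of Pecam1, the adhesion molecule CD31, ran from 10.07 to 10.38 and those of Cdh5, which encodes VE-cadherin, from 10.34 to 10.71, whereas probe sets with no listed gene had array medians of 5.65 to 5.79. Bmx alone among the members, at 4.92 to 5.8, read at or near those medians on all arrays. Levels of different probe sets are not compared with each other, since each probe set has its own response.

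In the clipped RV the endothelial genes shifted upward by a small amount, most of them by less than 0.5 on the log2 scale. At 1 week 9 of 37 members rose and 0 fell, where 9.57% of all genes rose and 8.86% fell. At 3 weeks 9 of 37 rose and 0 fell, where 3.22% of all genes rose and 2.54% fell. At 6 weeks 4 of 37 rose, where 5.52% of all genes did, and 1 fell, Tal1, where 3.73% did. The median change over the members was 0.18 at 1 week, 0.33 at 3 weeks and 0.17 at 6 weeks, against -0.05 over all genes at each time. The fitted change was above 0 for 28 members at 1 week, 33 at 3 weeks and 34 at 6 weeks, against 42.9%, 42.0% and 42.0% of all genes. Under cyclic loess scaling of the arrays these 3 counts were 26, 33 and 30. Both clipped arrays lay above both sham RV arrays for 21 members at 1 week, 30 at 3 weeks and 25 at 6 weeks, against 26.4%, 25.5% and 26.0% of all genes. For 18 members all 6 clipped arrays did so, against 16.8% of all genes. These counts describe a list of genes that share cells, so its members are not independent of each other.

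**Figure D1:**
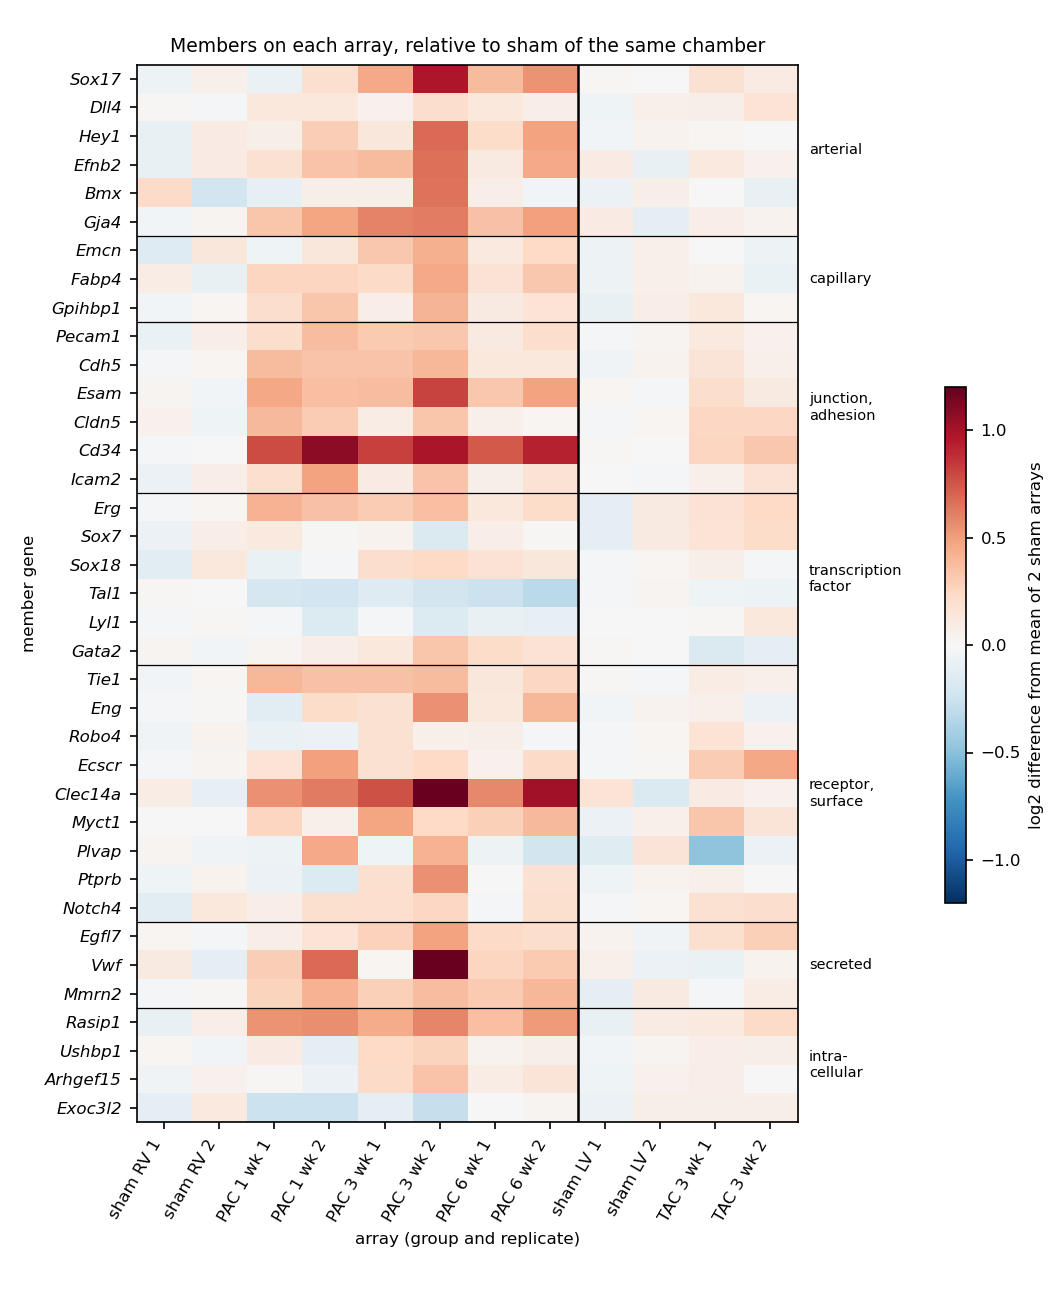
Each member's log2 value on each of the 12 arrays, minus its mean on the 2 sham arrays of the same ventricle, with genes in rows by role and arrays in columns by group. Red marks a value above the sham mean and blue a value below it: the PAC columns are mostly red, Cd34 and Clec14a in all 6 and Vwf on the second 3-week array among the deepest, and Tal1 is blue in all 6. The TAC columns stay close to 0 in their median over the members (0.09 and 0.07). Single members lie further off, such as Ecscr, red on both TAC arrays, and Plvap, blue on the first.

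Cd34, Clec14a, Gja4 and Rasip1 passed at all 3 times, and each rose. Cd34, a sialomucin on the surface of endothelial and some stromal and blood progenitor cells, changed by nearly the same amount at each time. It read 10.49 and 10.5 in sham RV, 11.28 and 11.57 at 1 week, 11.32 and 11.48 at 3 weeks, and 11.24 and 11.42 at 6 weeks. The lowest clipped array lay well above both sham arrays, and the times overlapped each other. The changes were 0.93 ± 0.11 (adjusted p = 0.0031), 0.91 ± 0.11 (0.017) and 0.84 ± 0.11 (0.0071) at 1, 3 and 6 weeks, n = 2 arrays in each group.

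Clec14a, a C-type lectin receptor of endothelium that binds the matrix protein MMRN2, showed the largest change of any member at 3 weeks. Its arrays read 7.28 and 7.09 in sham RV, 7.74 and 7.81 at 1 week, 7.95 and 8.38 at 3 weeks, and 7.77 and 8.2 at 6 weeks. All 6 clipped arrays exceeded both sham arrays, and the second array of the 3-week and of the 6-week group stood above its mate. The changes were 0.59 ± 0.17 (adjusted p = 0.042), 0.98 ± 0.17 (0.024) and 0.8 ± 0.17 (0.025).

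Rasip1, an adaptor of RAS-family GTPases needed for vessel lumens to open, read 7.75 and 7.92 in sham RV, 8.38 and 8.4 at 1 week, 8.29 and 8.43 at 3 weeks, and 8.2 and 8.35 at 6 weeks. Here too all clipped arrays lay above the sham arrays, and the level was much the same at each time. The changes were 0.55 ± 0.11 (adjusted p = 0.013), 0.52 ± 0.11 (0.031) and 0.43 ± 0.11 (0.033).

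Gja4, which encodes connexin 37 of arterial gap junctions, read 6.64 and 6.7 in sham RV, 7 and 7.14 at 1 week, 7.27 and 7.28 at 3 weeks, and 7.02 and 7.16 at 6 weeks. The 3-week arrays were the highest, and no clipped array reached down to the sham level. The changes were 0.4 ± 0.1 (adjusted p = 0.024), 0.6 ± 0.1 (0.02) and 0.42 ± 0.1 (0.029).

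Tie1 and Cdh5 passed at 1 and 3 weeks but not at 6 weeks. Tie1, an orphan receptor tyrosine kinase that modulates angiopoietin signalling, read 9.1 and 9.15 in sham RV, 9.53 and 9.48 at 1 week, 9.48 and 9.51 at 3 weeks, and 9.27 and 9.38 at 6 weeks. Cdh5 read 10.32 and 10.36 in sham RV, 10.72 and 10.68, 10.68 and 10.74, and 10.47 and 10.47 at the successive times. For both genes the 6-week arrays lay between the sham arrays and the earlier clipped ones, without overlap. The Tie1 changes were 0.38 ± 0.08 (adjusted p = 0.015) and 0.37 ± 0.08 (0.033), and the Cdh5 changes 0.36 ± 0.08 (0.018) and 0.37 ± 0.08 (0.033). At 6 weeks they were 0.2 ± 0.08 (0.12) and 0.13 ± 0.08 (0.29).

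**Figure D2:**
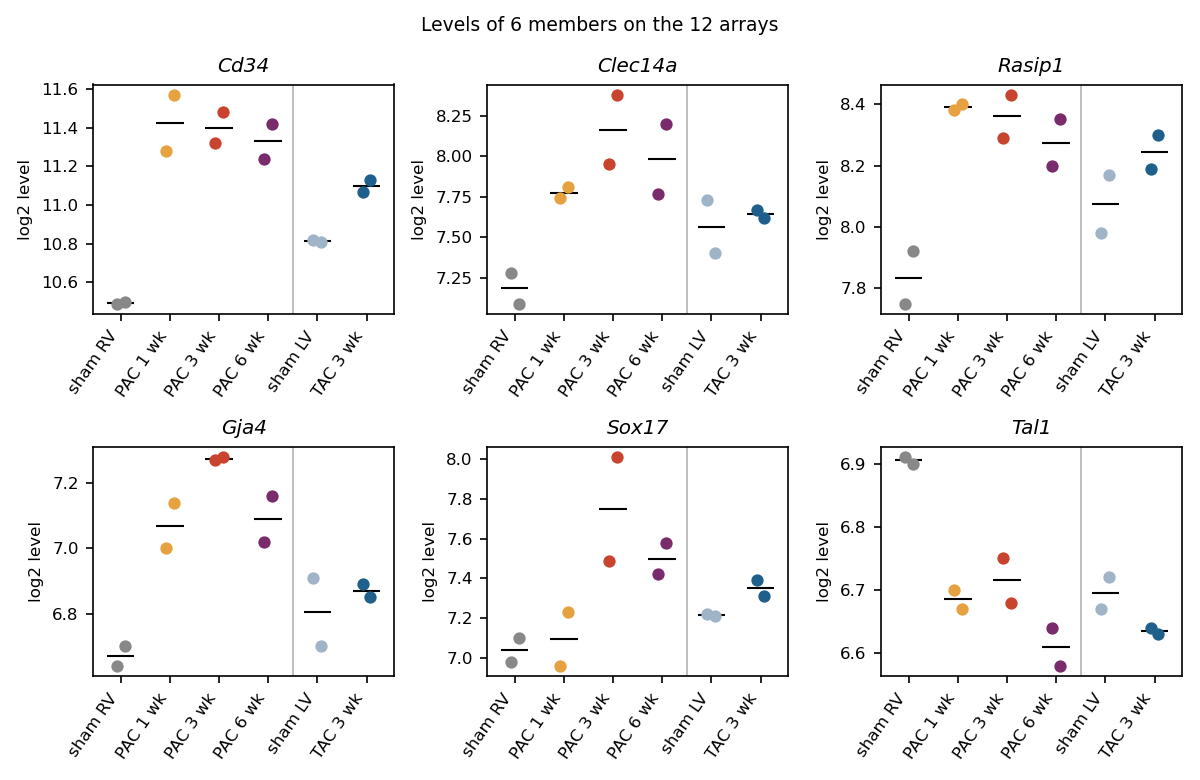
Log2 RMA level of Cd34, Clec14a, Rasip1, Gja4, Sox17 and Tal1 in the 6 groups, 1 panel a gene, with each point an array, each bar the mean of 2 arrays, and a vertical scale set for each gene that does not start at 0. In the Cd34 panel all 6 PAC arrays, at 11.24 to 11.57, sit above the sham RV arrays at 10.49 and 10.5. The TAC arrays at 11.07 and 11.13 sit above the sham LV arrays at 10.82 and 10.81.

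The sequences before the start sites of these genes are shown because these members passed most often and ETS factors are known regulators of endothelial genes. RefSeq promoter windows on GRCm38.p6 were at hand for 21 of the 37 members. The 5 shown are those of the members passing at the most times that hold a searched motif, 250 bases up to the start site, 5′ to 3′ on the strand of the gene. Clec14a lies at chr12:58269259-58269508 on the minus strand, Cd34 at chr1:194938571-194938820 on the plus strand, Gja4 at chr4:127314040-127314289 on the minus strand, Rasip1 at chr7:45627287-45627536 on the plus strand and Tie1 at chr4:118489850-118490099 on the minus strand. Capitals mark CAGGAA, an ETS motif, read on either strand (TTCCTG on the other), and CACACCC, a KLF motif (GGGTGTG on the other). Other forms of ETS site were not searched for and are not marked.
Clec14a: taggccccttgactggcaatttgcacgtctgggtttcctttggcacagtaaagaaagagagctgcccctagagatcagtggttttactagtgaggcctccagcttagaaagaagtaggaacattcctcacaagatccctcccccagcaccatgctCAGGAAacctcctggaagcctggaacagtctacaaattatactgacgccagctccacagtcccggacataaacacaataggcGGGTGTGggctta
Cd34: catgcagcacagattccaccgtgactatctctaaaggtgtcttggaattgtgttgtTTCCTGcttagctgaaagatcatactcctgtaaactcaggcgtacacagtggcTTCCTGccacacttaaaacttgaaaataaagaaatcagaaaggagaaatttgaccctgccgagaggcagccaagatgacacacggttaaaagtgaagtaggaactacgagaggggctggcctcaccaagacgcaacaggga
Gja4: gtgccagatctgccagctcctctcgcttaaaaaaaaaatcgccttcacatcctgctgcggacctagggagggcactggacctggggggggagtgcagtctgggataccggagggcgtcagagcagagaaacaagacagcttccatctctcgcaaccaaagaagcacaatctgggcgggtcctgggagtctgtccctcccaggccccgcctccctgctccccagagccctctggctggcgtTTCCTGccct
Rasip1: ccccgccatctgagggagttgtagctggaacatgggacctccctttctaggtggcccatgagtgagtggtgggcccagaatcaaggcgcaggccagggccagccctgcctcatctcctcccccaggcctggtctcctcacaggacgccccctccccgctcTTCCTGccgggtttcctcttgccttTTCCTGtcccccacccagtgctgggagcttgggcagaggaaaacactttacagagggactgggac
Tie1: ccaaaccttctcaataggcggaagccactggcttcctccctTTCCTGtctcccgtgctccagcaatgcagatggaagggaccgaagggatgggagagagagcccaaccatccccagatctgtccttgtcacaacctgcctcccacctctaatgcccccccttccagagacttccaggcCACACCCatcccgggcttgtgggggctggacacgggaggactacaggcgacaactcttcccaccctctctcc
Cd34 and Rasip1 each hold 2 ETS matches, Clec14a and Tie1 hold 1 match of each motif, and the ETS match of Gja4 begins 10 bases before the start. Over windows of 300 bases, reaching 50 bases past the start, CAGGAA was found in 16 of the 21 members (76.2%) and in 33.4% of all 27025 genes of the table. The SOX letters ACAATG, read as CATTGT on the other strand, were in 9.52% of members and 14.3% of all genes. For the GATA letters AGATAA, which read TTATCT on the other strand, the shares were 19.0% and 12.7%, and for CACACCC 14.3% and 9.05%. These are matches of letters and not measured binding sites. Bmx, Emcn, Eng, Exoc3l2, Lyl1, Myct1, Notch4, Robo4 and Ushbp1 also hold CAGGAA and passed at no time.

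Among the other junction and adhesion genes, Esam and Cldn5 passed at a single time each. Esam, an adhesion molecule of tight junctions, read 9 and 8.94 in sham RV, 9.43 and 9.33 at 1 week, 9.34 and 9.78 at 3 weeks, and 9.29 and 9.45 at 6 weeks. All of its clipped arrays were above sham, and the change passed only at 3 weeks (0.59 ± 0.13, adjusted p = 0.034), with 0.41 ± 0.13 (0.051) at 1 week and 0.4 ± 0.13 (0.076) at 6 weeks. Cldn5, the claudin that seals endothelial tight junctions, read 8.58 and 8.48 in sham RV, 8.92 and 8.83 at 1 week, 8.62 and 8.86 at 3 weeks, and 8.59 and 8.55 at 6 weeks. Its change was 0.34 ± 0.09 at 1 week (adjusted p = 0.035) and 0.04 ± 0.09 at 6 weeks (0.82), where its arrays overlapped sham.

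Pecam1 and Icam2, both immunoglobulin-family adhesion molecules, passed at no time. Pecam1 read 9.99 and 10.15 in sham RV and between 10.18 and 10.44 on the 6 clipped arrays, with changes of 0.29 ± 0.09 (adjusted p = 0.051), 0.31 ± 0.09 (0.064) and 0.17 ± 0.09 (0.24). For Icam2 the largest change was 0.34 ± 0.12 at 1 week (0.067).

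The transcription factors had small median changes as a group, 0.01, 0.08 and 0.1 over 6 genes at 1, 3 and 6 weeks. Erg, the ETS factor that maintains endothelial identity, read 8.16 and 8.19 in sham RV, 8.59 and 8.52 at 1 week, 8.47 and 8.53 at 3 weeks, and 8.3 and 8.39 at 6 weeks. Its clipped arrays were all higher than sham, and it passed at 1 week (0.38 ± 0.09, adjusted p = 0.025) but not at 3 weeks (0.33 ± 0.09, 0.062).

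Tal1, a helix-loop-helix factor shared by endothelial and blood progenitors, was the single member that fell. It read 6.91 and 6.9 in sham RV, 6.7 and 6.67 at 1 week, 6.75 and 6.68 at 3 weeks, and 6.64 and 6.58 at 6 weeks. Both sham RV arrays stood above every other array of the series, sham LV (6.67 and 6.72) included. The fall was -0.29 ± 0.08 at 6 weeks (adjusted p = 0.041), beside -0.22 ± 0.08 (0.069) and -0.19 ± 0.08 (0.14) earlier. This call was the least stable of all those made: it held in 4 of 17 alternative settings, was lost after loess scaling, and held in 2 of the 12 runs that each left out 1 array. Its relative Lyl1 also had all 6 clipped arrays below both sham RV arrays, by -0.09 ± 0.09 at each time and without passing, where 21.8% of all genes had their clipped arrays below in that way.

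Gata2, a zinc-finger factor of endothelial and blood cells, read 7.35 and 7.29 in sham RV and 7.35 to 7.65 on the clipped arrays, and did not pass. Sox18 and Sox7, which share the SOXF subgroup with the arterial Sox17, had changes between -0.07 and 0.22 and passed nowhere. Sox17 therefore stood apart from these relatives in its values at 3 weeks, a difference that was not tested.

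Of the receptors and surface signalling genes, Clec14a and Tie1 passed as given above, and the other 7 did not. Eng, the co-receptor endoglin of the TGF-beta family, read 9.91 and 9.94 in sham RV and 10.11 and 10.48 at 3 weeks (0.37 ± 0.15, adjusted p = 0.13). Ptprb, the phosphatase VE-PTP that restrains Tie2, read 9.92 and 10.01 in sham RV, 9.9 and 9.81 at 1 week, and 10.16 and 10.52 at 3 weeks. Its arrays were below sham at 1 week and above it at 3 weeks, with changes of -0.11 ± 0.12 (0.51) and 0.37 ± 0.12 (0.08). Myct1 read 8.37 on both sham RV arrays and 8.43 to 8.84 on all clipped arrays. Ecscr, a regulator of endothelial migration, changed by 0.32 ± 0.12 at 1 week (0.073). The guidance receptor gene Robo4 stayed between 8.47 and 8.73 on every RV array. Notch4, the endothelial Notch receptor, had changes of 0.1 to 0.23. Plvap, which forms the diaphragms of fenestrae and caveolae, had arrays that overlapped sham at 1 and 3 weeks. At 6 weeks both Plvap arrays, 7.2 and 7.04, were below sham RV at 7.29 and 7.22 (-0.14 ± 0.2, adjusted p = 0.68).

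Of the 3 secreted and matrix genes, Mmrn2 and Egfl7 rose and Vwf did not pass. Mmrn2, the matrix ligand of CLEC14A, read 8.9 and 8.92 in sham RV, 9.18 and 9.33 at 1 week, 9.2 and 9.28 at 3 weeks, and 9.22 and 9.31 at 6 weeks. Its clipped arrays were all higher than sham by nearly the same amount, yet the change passed at 1 week only (0.34 ± 0.1, adjusted p = 0.039), with 0.33 ± 0.1 (0.07) and 0.35 ± 0.1 (0.051) later. Egfl7, a secreted factor that guides vessel assembly, read 9.37 and 9.33 in sham RV, 9.43 and 9.51, 9.63 and 9.83, and 9.58 and 9.56 at the successive times, and passed at 3 weeks (0.38 ± 0.09, adjusted p = 0.041).

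Vwf, which encodes von Willebrand factor, the clotting protein stored in endothelial granules, was higher on every RV array than on any LV array. It read 8.6 and 8.38 in sham RV, 8.79 and 9.17 at 1 week, 8.51 and 9.68 at 3 weeks, and 8.75 and 8.8 at 6 weeks. In LV it read 8.01 and 7.88 after sham and 7.87 and 7.99 after TAC. All 8 RV arrays thus lay above all 4 LV arrays, which was true of no other member and of 0.537% of all genes. The difference between sham RV and sham LV, 0.54 ± 0.28, did not pass (adjusted p = 0.3), and neither did any PAC change.

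Of the intracellular adaptors and exchange factors only Rasip1 passed. Arhgef15, an exchange factor of vessel endothelium, read 8 and 8.09 in sham RV and 8.27 and 8.38 at 3 weeks (0.29 ± 0.09, adjusted p = 0.071), and Ushbp1 changed by 0.26 ± 0.09 at 3 weeks (0.087). Exoc3l2 went the other way at 1 week, reading 6.63 on both arrays against 6.78 and 7.01 in sham RV, a change of -0.26 ± 0.1 that did not pass (0.085). It was lower at 3 weeks too, with both arrays below sham RV (-0.2 ± 0.1, 0.2).

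The 6 arterial genes had a median change of 0.16 at 1 week, 0.46 at 3 weeks and 0.31 at 6 weeks. Without the second array of the group at each time these medians were 0.1, 0.26 and 0.18, and without the first 0.24, 0.65 and 0.46. Sox17, the SOX factor needed for arterial fate, read 6.98 and 7.1 in sham RV, 6.96 and 7.23 at 1 week, 7.49 and 8.01 at 3 weeks, and 7.42 and 7.58 at 6 weeks. The 1-week arrays overlapped sham, and the later arrays lay above both. The change was 0.06 ± 0.15 at 1 week (adjusted p = 0.8), 0.71 ± 0.15 at 3 weeks (0.033) and 0.46 ± 0.15 at 6 weeks (0.08). Between 1 and 3 weeks Sox17 differed by 0.65 ± 0.15, which did not pass over all genes (0.24).

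Efnb2, the arterial ligand ephrin-B2, read 7.53 and 7.72 in sham RV, 7.8 and 7.96 at 1 week, 8 and 8.28 at 3 weeks, and 7.73 and 8.07 at 6 weeks. All its clipped arrays exceeded sham, the lowest by little, and the 3-week change of 0.51 ± 0.14 just missed the threshold (adjusted p = 0.054). Hey1, a transcriptional target of Notch, read 7.17 and 7.36 in sham RV, 7.33 and 7.56 at 1 week, 7.4 and 7.94 at 3 weeks, and 7.48 and 7.74 at 6 weeks, with a change of 0.41 ± 0.16 (0.13) at 3 weeks. Dll4, the Notch ligand of arteries and sprouts, read 7.53 and 7.51 in sham RV and 7.57 to 7.73 on the clipped arrays, with changes of 0.11 to 0.13.

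Bmx, a cytoplasmic tyrosine kinase of arterial endothelium, read 5.38 and 4.92 in sham RV and 5.05 to 5.8 on the clipped arrays, which overlapped sham at all 3 times. Of the 6 arterial genes, then, Gja4 passed at all 3 times, Sox17 at 3 weeks, and the other 4 at none.

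**Figure D3:**
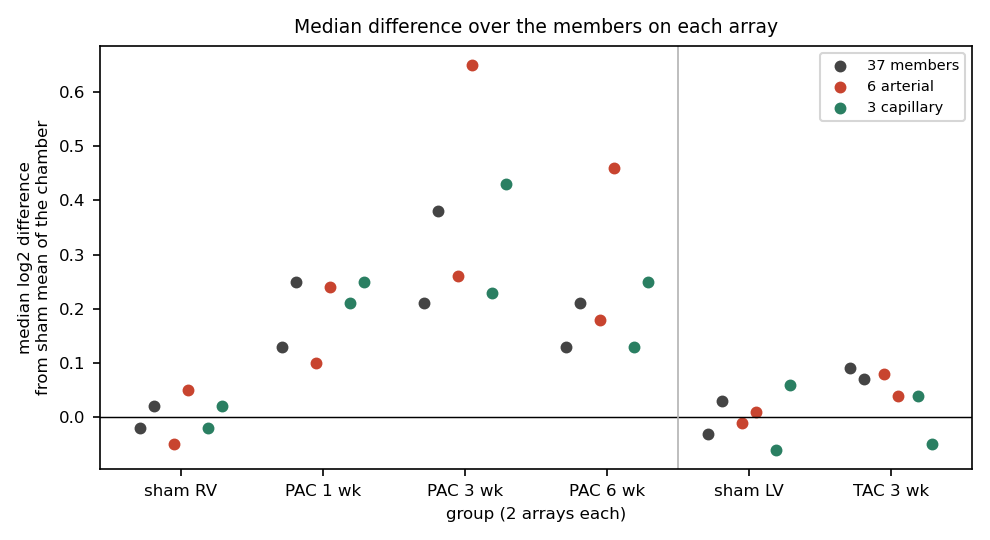
Median log2 difference from the sham mean of the same ventricle for each array, over all 37 members, the 6 arterial genes and the 3 capillary genes, with a point for each array. The arterial points of the 3-week PAC arrays stand at 0.26 and 0.65, the capillary points at 0.23 and 0.43, and the arterial and capillary points of TAC between -0.05 and 0.08.

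The 3 capillary genes had median changes of 0.26, 0.34 and 0.19 at 1, 3 and 6 weeks (0.16, 0.3 and 0.09 after loess scaling), and none of the 3 passed at any time by limma, although all 3 had changes above 0. The Emcn change at 1 week turned sign after loess scaling, and also without the second 1-week array or the first sham RV array. Fabp4, the fatty acid carrier of heart capillaries, read 11.03 and 10.85 in sham RV, 11.2 on both arrays at 1 week, 11.17 and 11.39 at 3 weeks, and 11.11 and 11.26 at 6 weeks. Every clipped array was above sham, with changes of 0.26 ± 0.11 (adjusted p = 0.11), 0.34 ± 0.11 (0.077) and 0.24 ± 0.11 (0.16). Gpihbp1, which carries lipoprotein lipase to the capillary lumen, read 8.56 and 8.61 in sham RV and 8.67 to 9 on the clipped arrays, with changes of 0.27, 0.25 and 0.14. Emcn, a sialomucin of capillary and venous endothelium, read 9.68 and 9.97 in sham RV, 9.78 and 9.97 at 1 week, 10.15 and 10.26 at 3 weeks, and 9.95 and 10.07 at 6 weeks. Only its 3-week arrays cleared sham (0.38 ± 0.11, 0.068). The gap between the arterial and capillary medians, 0.46 against 0.34 at 3 weeks, is smaller than the gap between the 2 arrays of that group within either subset, and was not tested.

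Between the times after clipping no member passed. Comparing 3 with 1 week, 0 of 37 passed in limma, where 0.0552% of all genes passed, and 9 had an unadjusted p under 0.05, where 7.95% of all genes did. The lowest p-values were those of Sox17, Ptprb (0.49, adjusted p = 0.27) and Arhgef15 (0.32, 0.33). From 3 to 6 weeks 0 passed in limma (3 unadjusted), where 0.0201% (4.78% unadjusted) of all genes did. The median change was -0.14, with 3 members above 0 against 51.1% of all genes. Cdh5 (-0.24), Ushbp1 (-0.2) and Ptprb (-0.28) had the lowest p-values there, each with an adjusted p of 1. Between 1 and 6 weeks 0 passed in limma (6 unadjusted), where 0.0953% (9.75% unadjusted) of all genes did, with Cldn5 at -0.3 (0.3), Cdh5 at -0.23 (0.35) and Exoc3l2 at 0.28 (0.39). The fitted change from sham was highest at 3 weeks for 24 members, at 1 week for 11 and at 6 weeks for 2.

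The second 3-week PAC array carried much of that peak. It was the highest of all 12 arrays for 21 members, against 6.73% of all genes, and above its mate for 31 members, against 49.9% of all genes. Over the members its median difference from sham RV was 0.38, and that of its mate 0.21. Without it 0 members passed at 3 weeks, 33 of 37 changes were above 0 with Plvap and Sox7 turning sign, the median change was 0.21, and the median from 3 to 6 weeks moved from -0.14 to -0.05. The same array read higher than its mate for the 8 atrial muscle genes (mean level 9.32 against 8.28), and the part of that in the result was not tested.

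**Figure D4:**
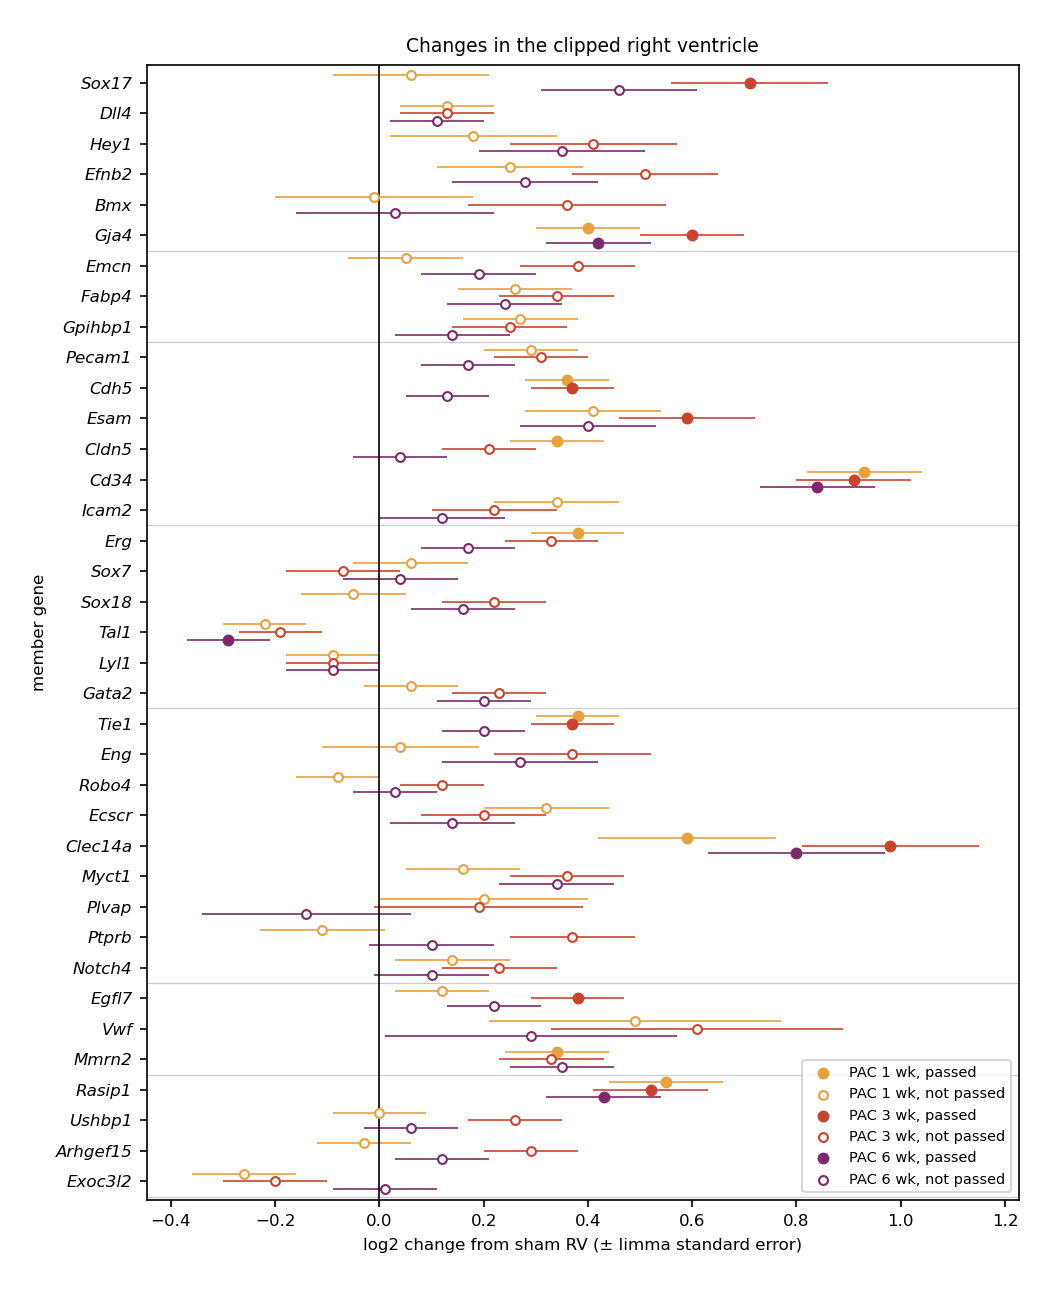
Fitted log2 change from sham RV for each of the 37 members at 1, 3 and 6 weeks after clipping, with bars of 1 standard error and filled points for members that passed. Most points lie to the right of 0 by less than 0.5, Cd34 and Clec14a reach 0.93 and 0.98, and Tal1 lies to the left at -0.29.

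Leaving out single arrays limited the calls at every time. Without the second 1-week array, or without the first or the second sham RV array, 1 member passed at 1 week, Cd34, and 1.59%, 5.47% and 1.14% of all genes passed in these 3 runs, against 18.4% with all arrays. At 3 weeks 1 member and 0.256% of all genes passed without the first sham RV array, and 0 members and 0.015% of genes without the second sham RV or the second 3-week array, against 5.76%. At 6 weeks 1 member passed without the first or the second sham RV array (2.64% and 0.497% of all genes), and 0 without the second 6-week array (0.015%), against 9.25%. Arrays of groups outside a comparison enter only its estimate of the spread. Leaving 1 of them out still moved the counts of members passing at all 3 times. At 3 and 6 weeks these counts fell without a TAC or sham LV array and rose without an array of another PAC group. At 1 week the count fell without a TAC array and rose without a 3-week PAC array. It was unchanged without a sham LV or 6-week PAC array. Each such run also had fewer residual degrees of freedom, and the cause of these moves was not tested.

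Sham RV was itself low in several of the genes that passed. Cd34 read 10.82 and 10.81 in sham LV, Clec14a 7.73 and 7.4, and Rasip1 7.98 and 8.17, in each case above both sham RV arrays. Tie1, Cdh5, Erg, Esam, Mmrn2 and Sox17, which also passed, likewise had sham RV arrays below sham LV arrays without overlap. So did Myct1, Fabp4, Arhgef15, Ushbp1, Gata2 and Dll4, which passed at no time. Of the other members that rose, Gja4 and Egfl7 overlapped and Cldn5 read higher in sham RV. Over all members the arrays of sham RV were below those of sham LV for 15 and above them for 7, against 26.1% and 29.3% of all genes. None of these differences passed: limma called 0 of 37 members (6 at an unadjusted p under 0.05) and 0.411% of all genes (20.7% unadjusted). The lowest p-values were those of Fabp4 (-0.33, adjusted p = 0.14), Cd34 (-0.32, 0.15) and Tal1 (0.21, 0.16).

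After TAC the endothelial genes moved little in the LV. Limma called 0 of 37 members and 0 of 19938 genes in all (0.0%), with 4 members and 4.83% of all genes at an unadjusted p under 0.05. The median change over the members was 0.08, against -0.02 over all genes, and 29 were above 0, against 44.8% of all genes. Both TAC arrays lay above both sham LV arrays for 20 members, against 18.2% of all genes. Ecscr read 8.01 and 8.03 in sham LV and 8.32 and 8.48 after TAC, a change of 0.38 ± 0.12 that did not pass (adjusted p = 0.98). Egfl7 (0.24) and Cldn5 (0.25) came next at the same adjusted p. Cd34 read 11.07 and 11.13 after TAC against 10.82 and 10.81 in sham LV, a change of 0.28 ± 0.11 (0.98). The arterial median was 0.07 and the capillary median -0.02. In simulated data the test recovered 29.7% of changes of 0.5 and 97.8% of changes of 1 in this comparison. Changes of the sizes seen here, all under 0.5, were not simulated.

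The difference between the PAC change and the TAC change at 3 weeks was tested for each gene. It passed for 0 of 37 members in limma (11 at an unadjusted p under 0.05) and for 0.0% of all genes, where 11.9% had an unadjusted p under 0.05. Its median over the members was 0.26, with 31 above 0, against 46.9% of all genes. Cd34 had 0.62 ± 0.16, Gja4 0.54 ± 0.14 and Clec14a 0.9 ± 0.25, each with an adjusted p of 0.35. No member was thus shown to respond differently to the 2 operations, which also act on different chambers.

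**Figure D5:**
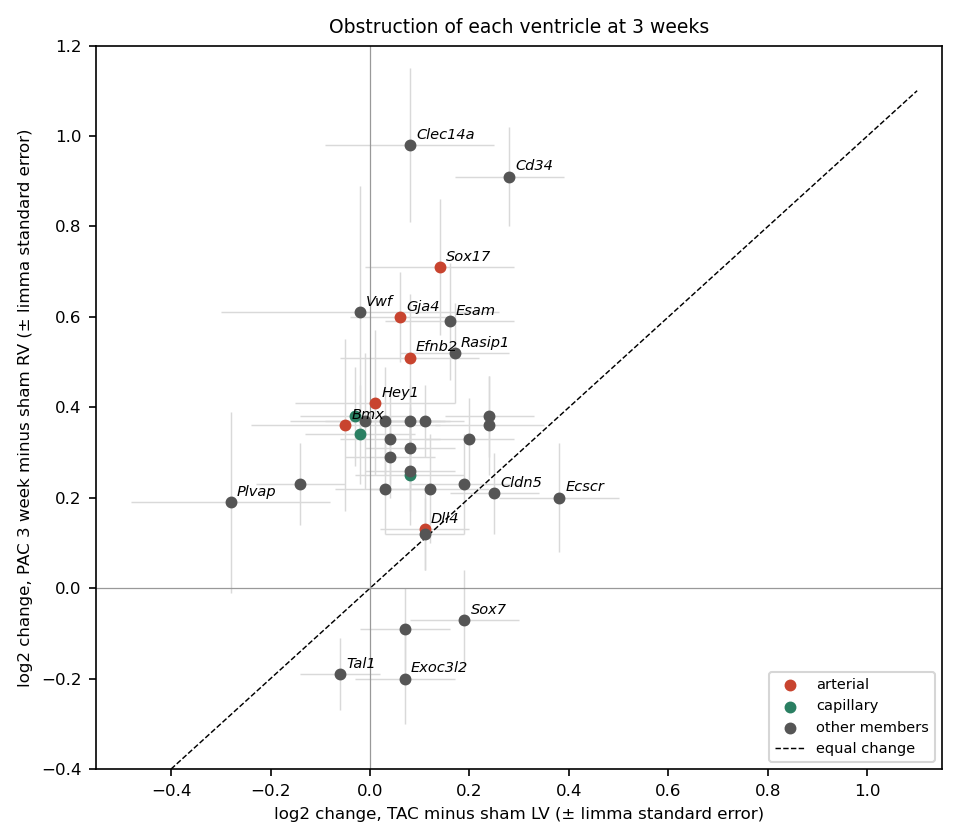
Log2 change of each member at 3 weeks after TAC (LV, horizontal) and after PAC (RV, vertical), each from its own sham group, with the line of equal change. Of the 37 points 31 lie above the line, Cd34 at 0.28 and 0.91 and Clec14a at 0.08 and 0.98, and no single difference between the 2 changes passed.

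Endothelial genes outside the list moved in both directions, most of them upward. The other lists share some genes, so some calls are counted again: Mcam among the sprout and the pericyte and smooth muscle genes, and Kdr among the capillary genes. Jag1 is in both the Notch and the further arterial list, and Unc5b in both the sprout and the further arterial list. Of 20 other genes of endothelium in general, 7 rose and 1 fell at 1 week, 6 rose at 3 weeks and 6 at 6 weeks, with median changes of 0.16, 0.32 and 0.19. For this list and those that follow, the shares of all genes that rose were 9.57%, 3.22% and 5.52% at 1, 3 and 6 weeks. The shares that fell were 8.86%, 2.54% and 3.73%. Mcam, the adhesion molecule CD146, changed by 0.93 ± 0.19, 0.77 ± 0.19 and 0.77 ± 0.19 at 1, 3 and 6 weeks, and Calcrl, the receptor of adrenomedullin, by 0.67 ± 0.19, 0.92 ± 0.19 and 0.79 ± 0.19. Cd93, a C-type lectin receptor of the Clec14a family, changed by 0.77 ± 0.1, 0.67 ± 0.1 and 0.53 ± 0.1, and Gimap4 by 0.54 ± 0.09, 0.64 ± 0.09 and 0.56 ± 0.09. All 12 of these changes passed. Egfl8, a relative of Egfl7, was the gene that fell at 1 week (-0.45 ± 0.13, adjusted p = 0.038), and the water channel gene Aqp1, chosen after its values were seen, had changes of -0.66 ± 0.21 at 3 weeks (0.079) and -0.63 ± 0.21 at 6 weeks (0.08) that did not pass.

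In 8 venous genes, 2 rose at each time. Sele, the selectin that captures leukocytes, changed by 0.98 ± 0.15, 0.64 ± 0.15 and 0.89 ± 0.15 and passed at each, Aplnr, the apelin receptor, passed at 1 and 6 weeks (1.05 ± 0.19 and 0.74 ± 0.19), and Ephb4, the receptor of ephrin-B2, passed at 3 weeks (0.36 ± 0.08). Of 10 genes of angiogenic sprouts, 6 rose at 1 week, 2 at 3 weeks and 3 at 6 weeks. Nid2, a basement membrane protein, passed at each time (0.97, 0.53 and 0.59), and Esm1, the tip cell proteoglycan endocan, at 6 weeks (1.56 ± 0.36), where its 2 arrays read 6.19 and 7.77.

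Among 12 further genes of the Notch pathway, 3 rose and 1 fell at 1 week, 0 passed at 3 weeks in limma (7 at an unadjusted p under 0.05) and 2 rose at 6 weeks. Hes1, a Notch target, changed by 0.54 ± 0.11 and 0.66 ± 0.11 at 1 and 6 weeks, and Nrarp, a feedback inhibitor, by 0.61 ± 0.14 at 1 week. Jag1, a ligand, changed by 0.5 ± 0.12 at 6 weeks. Of 10 further arterial genes 2 rose at each time, Nrp1 passing at all 3 (0.44, 0.41 and 0.38). Of 10 further capillary genes 1 rose at 1 week (Fabp5, 0.56 ± 0.15), 1 rose at 3 weeks (Kdr, 0.43 ± 0.1) and 1 fell at 6 weeks (Car4, -0.49 ± 0.11). The 10.0% that rose at 1 week is near the 9.57% of all genes that did. Of 8 endocardial genes 1 passed, Cytl1, which fell at 1 week (-0.53 ± 0.13).

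Of 7 lymphatic genes 2 rose and 1 fell at 1 week, 0 passed at 3 weeks in limma (2 at an unadjusted p under 0.05) and 1 rose at 6 weeks, Itga9 (0.81 ± 0.18, adjusted p = 0.028). Mmrn1, a platelet and lymphatic endothelial protein related to Mmrn2, read 4.04 and 3.88 on the 1-week PAC arrays and 7.08 to 7.96 on the other 10 arrays. Both 1-week arrays lay below the medians of unlisted probe sets, so the fitted change of -3.39 ± 0.24 (adjusted p = 0.00065) is not an exact fold. A C57BL/6 substrain in general use is known to lack the Mmrn1 gene. The labels give the strain as C57BL/6 with no substrain, and the part of this in the 1-week results was not tested.

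Genes of several other cell types also changed after clipping, some much further than the endothelial genes and on different courses. Over all genes 9.57%, 3.22% and 5.52% rose at 1, 3 and 6 weeks, and 8.86%, 2.54% and 3.73% fell. Of 12 fibroblast genes 8 rose at 1 week, 7 at 3 weeks and 4 at 6 weeks, with median changes of 1.42, 1.51 and 1.06, and their mean level was 9.33 and 9.37 in sham RV against 10.16 to 11.05 on the clipped arrays. Of 15 pericyte and smooth muscle genes 3 rose and 1 fell at 1 week, 6 rose and 1 fell at 3 weeks, and 5 rose at 6 weeks. Of 12 macrophage genes 8 rose at 1 week, and in limma 0 passed at 3 weeks (2 at an unadjusted p under 0.05) and 0 at 6 weeks (1 unadjusted). Of 8 atrial muscle genes 6, 3 and 2 rose at 1, 3 and 6 weeks, and their mean level was 7.42 and 6.96 in sham RV, 8.17 to 9.99 on the clipped arrays, 7.82 and 8.81 in sham LV, and 8.09 and 8 after TAC. Without the 3 arrays whose atrial genes most exceeded those of their mate, the second array of the 1-week, the 3-week and the sham LV group, 1 member passed at 1 week, 0 at 3 weeks and 7 at 6 weeks, an alternative chosen after the values were seen. The part of the fibroblast, macrophage, vessel wall and atrial genes in the endothelial changes was not tested.

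Cell cycle genes rose most at 1 week: 9 of 11 rose then, 3 rose at 3 weeks and 1 fell at 6 weeks. Blood progenitors are known to express Cd34, Tal1, Lyl1 and Gata2 as well. Of 11 genes of blood progenitors, platelets and mast cells 1 passed, the stem cell factor receptor gene Kit, which rose at 1 week (0.9 ± 0.11, adjusted p = 0.0031). Fat cells, which also make Fabp4, had a mean marker level of 5.58 to 5.84 on the 12 arrays, near that of unlisted probe sets. Of their 9 genes 1 rose and 3 fell at 1 week, and 2 fell at 3 weeks. At 6 weeks 0 passed in limma (3 at an unadjusted p under 0.05). Of 10 epicardial and mesothelial genes 3 rose at 1 week and 1 fell at 6 weeks, and none of 5 red blood cell genes passed in limma at any time (0, 1 and 1 at an unadjusted p under 0.05). Of 12 cardiomyocyte genes 1 passed, Mybpc3, and their mean level was 13.32 to 13.43 on all arrays.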

How the data were processed

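The authors deposited log2 values for 35556 probe sets on each of 12 arrays, made by RMA in Affymetrix Power Tools per the submitters' processing notes; versions and the genome build were not given in the sources used here. RMA corrects background, forces the arrays to the same distribution and summarises probes, which can compress low values and hides a change common to most genes. A probe set was used where the platform annotation named a single gene: 21789 probe sets, 19938 genes. For the 999 genes with several, the one with the highest mean was taken. No genome was used.

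Limma 3.58.1 in R 4.3.3 was fitted to all 12 arrays with a mean per group (6 residual and 4.6 prior degrees of freedom). Changes were called at an adjusted p-value under 0.05 over all genes in 9 comparisons. On simulated data with 200 changed genes, tested in 5 draws, the PAC 3-week comparison recovered 28.8% of log2 changes of 0.5 and 98.1% of changes of 1. The number of arrays limits the precision: the median standard error of a change was 0.11. Arrays of a group correlated at 0.9917 to 0.9971, and none were duplicates.

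The members, the 18 other gene lists and the tests were chosen with earlier results of these data known. All members are named, those that passed with values for each array. Where none passed, the 3 with the lowest p-values are named, and of each other list up to 4 that passed. The labels number the arrays 1 and 2 within each group. Deviations of arrays with the same number correlated at 0.26, 0.37 and 0.26 among the 3 PAC groups and at -0.24 to 0.11 between all other groups, with 0.02, -0.09 and -0.07 between sham RV and PAC at 1, 3 and 6 weeks. The numbers were not taken to pair samples over the 6 groups, although the 3 PAC groups shared part of these deviations. The cause of that was not tested. In each PAC group the mean level of the members was higher on array 2 than on array 1. The same held by less in sham RV (8.31 against 8.27) and sham LV (8.36 against 8.31), and both TAC arrays stood at 8.42.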

Additional observations from a re-analysis of the deposited data

How the results depend on the processing

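No call reversed direction, and no median of the members other than that from 1 to 6 weeks (0, range -0.04 to 0.05), under the 18 alternative settings or the 1 chosen after seeing the data, though small changes that had not passed did: 4 members turned sign after loess scaling at 1 week and 4 at 6 weeks, and 12 from 3 to 6 weeks without the second 3-week array. The number of members passing at 1, 3 and 6 weeks of PAC, 9, 9 and 5 as reported, was 5, 4 and 3 after cyclic loess scaling and 1, 5 and 2 with the spread estimated from the arrays compared. It was 11, 17 and 7 with a trended, robust prior, and 12, 18 and 8 without genes below the median level. With the replicate number as a block it was 12, 12 and 6, and the block lost none of the 23 calls. Without the 3 arrays with high atrial markers it was 1, 0 and 7. Leaving out 1 array at a time gave 1 to 11, 0 to 11 and 0 to 6 members. The median change of the members ranged from 0.13 to 0.25 at 1 week, 0.21 to 0.38 at 3 weeks, -0.21 to -0.05 from 3 to 6 weeks and 0.18 to 0.30 for the PAC change minus the TAC change. After loess scaling the medians were 0.24 at 3 weeks, 0.09 at 6 weeks and 0.19 for the PAC minus TAC difference. Without the 3 arrays with high atrial markers they were 0.21 at 3 weeks, -0.05 from 3 to 6 weeks and 0.13 for that difference. The share of members with an ETS match was 71.4% before the start site alone. Cd34 kept its call in 18 of these 18 settings at 1 week, 16 at 3 weeks and 17 at 6 weeks. The other calls were less stable: at 1 week they held in 10 (Cldn5 and Clec14a) to 14 settings, at 3 weeks in 8 (Tie1) to 15, and at 6 weeks in 11 (Rasip1) to 15, with Tal1 at 4 of 17. With an array left out fewer samples entered the fit and the counts fell in some runs and rose in others. The cause of the moves was not tested.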
